A study of Homo sapiens with 30 samples.

Results

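Soshiho-tang, an ethanol extract of a herbal formula of Korean medicine, was compared at 500 and 20 µg/mL in A549 cells. This established cell line comes from a human lung carcinoma and often stands in for alveolar epithelium. The comparison is between 6 of the 30 RNA libraries of the series: 3 from cells kept for 24 h with 500 µg/mL and 3 from cells kept for 24 h with 20 µg/mL, chosen by the treatment that the labels give. Vehicle libraries are on neither side of it, so a gene that both doses move alike does not appear as a difference. They do enter the fit of 27 libraries from 10 groups, other extracts included, that sets the spread behind its p-values and counts. In that fit each group of a further extract, Okbyeongpung-san, joins a library titled batch D with another titled batch E. The Soshiho-tang, Yijin-tang and vehicle libraries are all titled batch E. The part of a batch difference in that spread was not tested. The labels give 0.1% DMSO for the vehicle cultures and the series text 2% DMSO, and the solvent level of the extract cultures is not given in the sources used here. Further groups of 3 libraries each serve to place it, namely Soshiho-tang at 100 µg/mL and another formula, Yijin-tang, at 500 and at 20 µg/mL. The 500 µg/mL libraries held 25008956 to 29566233 counts and the 20 µg/mL libraries 26253517 to 33658200 counts. Whether the replicates were grown as separate cultures is not stated, so p-values here measure the spread between libraries, which may be technical.

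Cells that run short of amino acids, that misfold proteins in the endoplasmic reticulum or that meet certain other stresses phosphorylate the initiation factor eIF2. General protein synthesis then slows while the transcription factor ATF4 is made from its messenger RNA. ATF4 binds DNA together with C/EBP-family partners and turns on genes for amino acid synthesis, amino acid import and transfer RNA charging, and genes that later restrain or end the response; the whole is called the integrated stress response. Heat shock chaperones are controlled separately by the factor HSF1, and mitotic genes by complexes that bind their promoters in G2.

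The cells carried the marks of the line. CDKN2A, which is deleted in A549 cells, had 0 counts in each of the 6 libraries, and the 10 genes listed as typical of A549 summed to 21113 to 21635 CPM (the count scaled to a common, TMM-adjusted library total) at 500 µg/mL and 22444 to 23011 CPM at 20 µg/mL. The immune marker CD3E had 0 counts and PTPRC at most 1, the fibroblast markers COL1A2 and DCN at most 1, and the endothelial marker PECAM1 at most 4. Messenger RNAs of the mitochondrial genome took 6.68% to 7.30% of the counts at 500 µg/mL and 6.99% to 8.18% at 20 µg/mL, ranges that overlapped. Summed markers of other cells were at the following levels, and their part in the results was not tested. The 10 alveolar type II markers summed to 35.8 to 39.2 CPM at 500 µg/mL and 27.3 to 28.4 CPM at 20 µg/mL, and the 8 fibroblast markers to 27.4 to 33.4 CPM at 500 µg/mL and 36.9 to 43.2 CPM at 20 µg/mL. The 8 immune markers summed to 3.17 to 3.77 CPM at 500 µg/mL and 4.50 to 5.59 CPM at 20 µg/mL, and the 8 endothelial markers to 7.06 to 7.92 CPM at 500 µg/mL and 4.71 to 5.70 CPM at 20 µg/mL. In none of these sums did the doses overlap, but few genes carried them. ABCA3 held 685 to 1049 counts over the 6 libraries and each other alveolar type II marker at most 42, and ESAM held 133 to 215 counts and each other endothelial marker at most 8. Of the fibroblast sum COL1A1, COL3A1 and THY1, and of the immune sum CD14 and ITGAM, held most. The surfactant genes SFTPA1 and SFTPA2 had 0 counts in all 6 libraries.

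At 500 µg/mL against 20 µg/mL, 3588 of 17459 genes tested differed (20.6%), by edgeR's quasi-likelihood test at an adjusted p below 0.05. Of these 1807 were higher (10.3%) and 1781 lower (10.2%). Most differences were small: the median log2 fold change was 0.39 among higher and −0.31 among lower genes. At least 2-fold changes were reached by 161 higher genes (0.922%) and 63 lower genes (0.361%). The median log2 fold change over all genes was 0.00327. A fit of 24 libraries without vehicle gave 1784 higher and 1548 lower genes, and a fit of the 6 libraries alone 2145 higher and 2067 lower. With Soshiho-tang 500 replicate 2 left out 1183 genes were lower, and leaving out any 1 of the 6 libraries gave 1277 to 1617 higher and 1183 to 1519 lower genes. With Soshiho-tang 20 replicate 3 left out, 41 genes were at least 2-fold lower. On the first principal component of the 9 Soshiho-tang libraries, which held 29% of the variance, the 500 µg/mL libraries lay at −26.9, −35.5 and −18.9, the 100 µg/mL libraries at 3.08, 8.52 and 20.5 and the 20 µg/mL libraries at 9.25, 19.0 and 20.9.

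**Figure D1:**
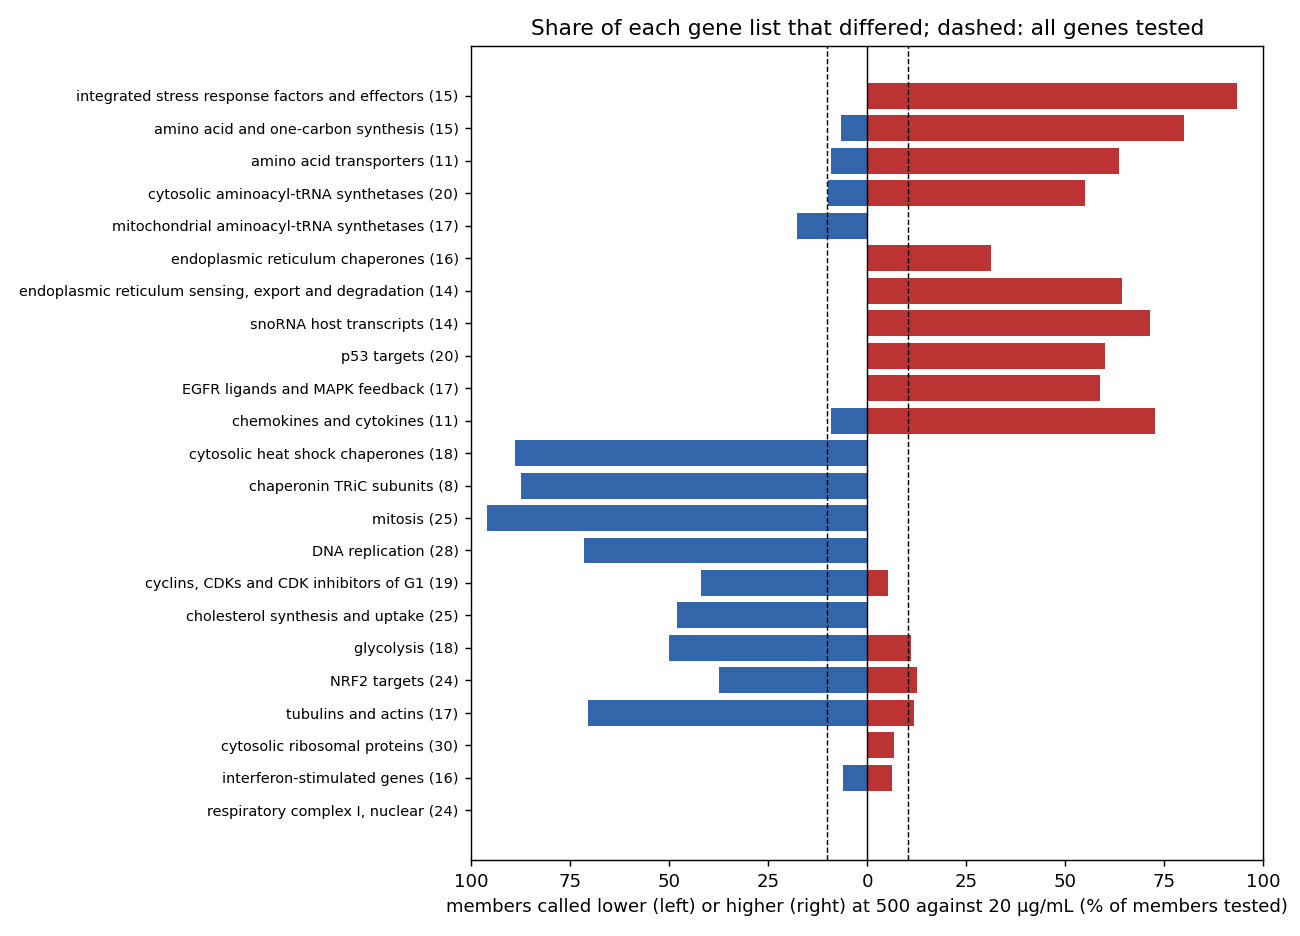
Share of the tested members of each gene list that were called higher (bars to the right, percent) or called lower (bars to the left, percent) at 500 against 20 µg/mL Soshiho-tang, with the number tested after each list name. Dashed lines mark the 10.3% and 10.2% of all genes tested; stress response and amino acid lists reach to the right, heat shock, mitosis and replication lists to the left.

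Genes of the integrated stress response rose together. Of the 15 measured members of the list, 14 rose and 0 fell, with a median log2 fold change of 1.19. The largest change of any gene that met the naming rule was that of NIBAN1, a cytoplasmic protein made under stress (ENSG00000135842, GRCh38 chromosome 1, 184790724 to 184974550, minus strand). It was at 37.8, 47.3 and 52.95 CPM at 500 µg/mL, against 4.74, 5.43 and 6.99 CPM at 20 µg/mL. All 3 libraries of the high dose lay above all 3 of the low dose, which the naming rule requires of such a gene. The log2 fold change was 3.00 ± 0.14 (SE, adjusted p = 6.5e-14). STC2, the secreted glycoprotein stanniocalcin 2, was at 107, 128 and 132 CPM at 500 µg/mL and at 20.0, 19.4 and 18.7 CPM at 20 µg/mL, a log2 fold change of 2.66 ± 0.065 (SE, adjusted p = 2.41e-19).

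ATF4 itself rose. Its messenger RNA (ENSG00000128272, GRCh38 chromosome 22, 39519695 to 39522685, plus strand) was at 340.1, 332 and 348 CPM at 500 µg/mL, against 247, 256 and 252 CPM at 20 µg/mL. The groups did not overlap, and the log2 fold change was 0.44 ± 0.068 (SE, adjusted p = 4.56e-05). The factor is regulated largely at translation, which these data do not measure. CEBPG, a C/EBP protein that pairs with ATF4, was at 192, 206 and 201 CPM at 500 µg/mL and 108, 99.3 and 101 CPM at 20 µg/mL, a log2 fold change of 0.96 ± 0.058 (SE, adjusted p = 1.15e-11). ATF5, a relative that is also regulated at translation, gave 0.13 ± 0.10 (SE, adjusted p = 0.391) and was not called.

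Transcription factors and regulators that act late in the response also rose. DDIT3, which encodes CHOP, a factor linked to cell death under prolonged stress (ENSG00000175197, GRCh38 chromosome 12, 57516588 to 57521737, minus strand), was at 27.9, 38.4 and 33.8 CPM at 500 µg/mL, against 7.82, 8.30 and 6.02 CPM at 20 µg/mL. The lowest library of the high dose was more than 3-fold above the highest of the low dose, and the log2 fold change was 2.18 ± 0.11 (SE, adjusted p = 2.55e-13). ATF3, a repressor induced by stress, was at 13.7, 16.1 and 15.0 CPM at 500 µg/mL and 5.85, 5.85 and 4.81 CPM at 20 µg/mL, a log2 fold change of 1.45 ± 0.11 (SE, adjusted p = 6.21e-10). TRIB3, a pseudokinase that feeds back on ATF4 and CHOP, was at 248, 274 and 248 CPM at 500 µg/mL and 61.4, 66.9 and 56.9 CPM at 20 µg/mL, a log2 fold change of 2.06 ± 0.085 (SE, adjusted p = 1.22e-14). PPP1R15A, the subunit GADD34 that directs dephosphorylation of eIF2, had a log2 fold change of 1.10 ± 0.074 (SE, adjusted p = 6.29e-11).

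Effectors of the response moved the same way. CHAC1, which breaks down glutathione, was at 21.3, 20.0 and 20.6 CPM at 500 µg/mL, against 4.97, 5.19 and 5.84 CPM at 20 µg/mL, a log2 fold change of 1.95 ± 0.12 (SE, adjusted p = 1.04e-11). SESN2 and DDIT4, which both restrain the growth kinase mTORC1, had log2 fold changes of 1.74 ± 0.10 (SE, adjusted p = 7.23e-12) and 1.11 ± 0.082 (SE, adjusted p = 3.49e-10). NUPR1, a small nuclear protein of the stress response, gave 1.19 ± 0.088 (SE, adjusted p = 3.94e-10). The log2 values of these effectors were thus spread from 1.11 for DDIT4 to 3.00 for NIBAN1, against 0.44 for ATF4.

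**Figure D2:**
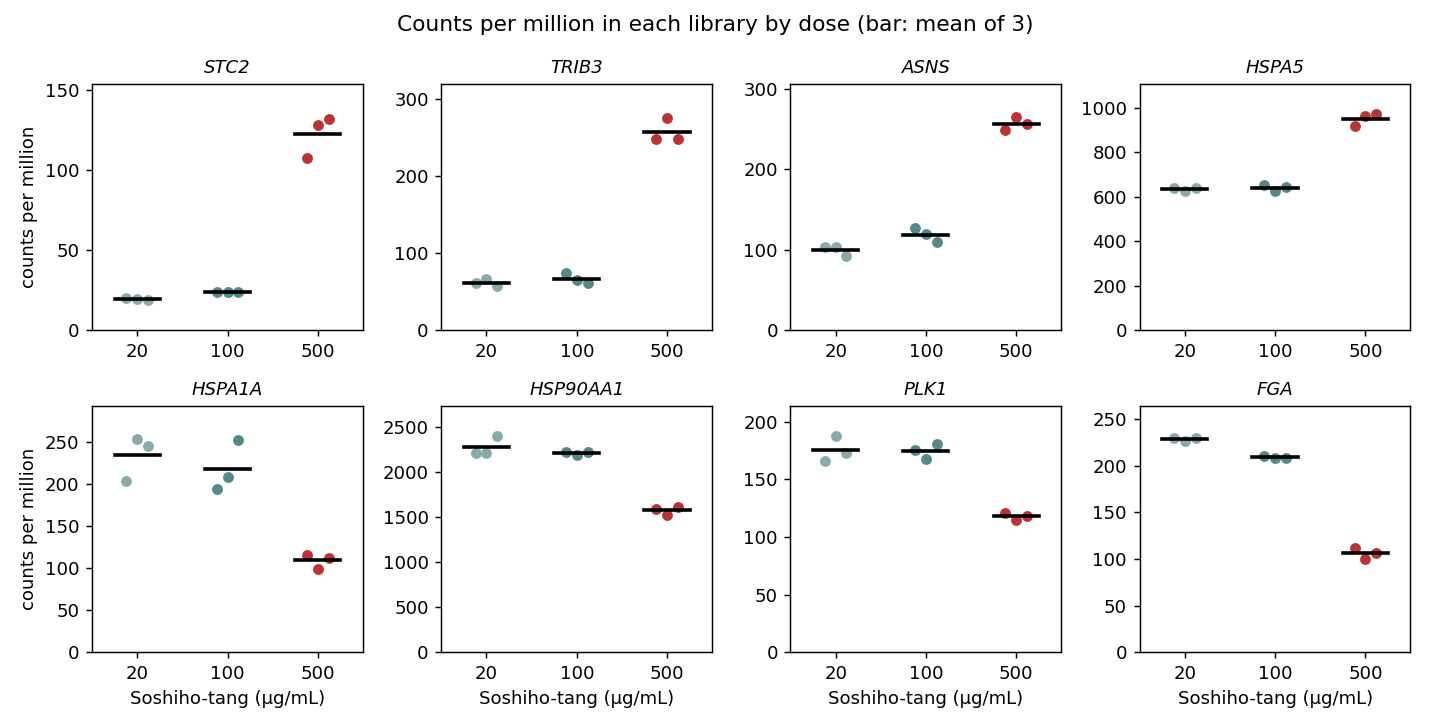
CPM in each of the 9 Soshiho-tang libraries (points, 3 per dose; bars are means) at 20, 100 and 500 µg/mL for 8 genes, each on its own linear axis from 0. STC2, TRIB3, ASNS and HSPA5 are high at 500 µg/mL, HSPA1A, HSP90AA1, PLK1 and FGA are low there, and the 100 µg/mL libraries lie near those of 20 µg/mL.

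Enzymes that make serine, glycine, asparagine and one-carbon units rose together. Of 15 members, 12 rose and 1 fell (0 without Soshiho-tang 500 replicate 2 or 3 or Soshiho-tang 20 replicate 1 or 3), with a median log2 fold change of 0.76. ASNS, asparagine synthetase, was at 248, 265 and 256 CPM at 500 µg/mL, against 103, 103 and 92.3 CPM at 20 µg/mL. The groups were well apart, and the log2 fold change was 1.36 ± 0.058 (SE, adjusted p = 1.45e-14). All 3 enzymes of serine synthesis rose: PHGDH, the first, by 1.20 ± 0.073, PSAT1, the second, by 1.01 ± 0.051, and PSPH, the last, by 0.45 ± 0.051 on the log2 scale (SE, adjusted p = 1.19e-11, 3.64e-13 and 3.8e-07). The mitochondrial one-carbon enzymes ALDH1L2, MTHFD2, SHMT2 and MTHFD1L had log2 fold changes of 1.66, 1.06, 0.52 and 0.41, all called.

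Other enzymes of the list spread widely. CBS, which joins homocysteine and serine, gave 1.39 ± 0.057 (SE, adjusted p = 1.22e-14). The GRCh38 reference sequence holds a near-identical copy of CBS, so its reads are of uncertain assignment. CTH, the next enzyme on that path, went the other way, with 3.61, 3.17 and 3.28 CPM at 500 µg/mL and 4.33, 4.05 and 4.40 CPM at 20 µg/mL and a log2 fold change of −0.34 ± 0.10 (SE, adjusted p = 0.0188); its call was lost without Soshiho-tang 20 replicate 1 or 3 or Soshiho-tang 500 replicate 2 or 3. ALDH18A1 of proline synthesis and GLUL, glutamine synthetase, were not called, at log2 fold changes of 0.05 ± 0.046 and −0.10 ± 0.059 (SE, adjusted p = 0.485 and 0.278), while PYCR1, the last enzyme of proline synthesis, rose by 0.76 ± 0.086 (SE, adjusted p = 4.12e-07). PCK2, the mitochondrial phosphoenolpyruvate carboxykinase, belongs to none of the lists. It was at 94.2, 96.5 and 93.9 CPM at 500 µg/mL and 33.4, 33.4 and 31.1 CPM at 20 µg/mL, a log2 fold change of 1.54 ± 0.066 (SE, adjusted p = 1.53e-14).

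Amino acid transporters changed in part. Of 11 tested, 7 rose and 1 fell, the second share (9.09%) being near the 10.2% of all genes tested. SLC1A4, a carrier of neutral amino acids, was at 69.5, 75.2 and 69.0 CPM at 500 µg/mL and 32.8, 32.6 and 31.5 CPM at 20 µg/mL, a log2 fold change of 1.14 ± 0.058 (SE, adjusted p = 3.87e-13). The glycine carrier SLC6A9 rose by 1.20 ± 0.087, the cationic amino acid carrier SLC7A1 by 0.66 ± 0.072 and the glutamine carriers SLC38A1 and SLC38A2 by 0.57 ± 0.079 and 0.44 ± 0.085 (SE, adjusted p = 2.74e-10, 2.54e-07, 8.22e-06 and 0.000481). SLC7A5 and SLC3A2, the subunits of the large neutral amino acid exchanger, stood at 3536 to 3871 CPM and 941 to 1069.6 CPM at 500 µg/mL, against 3525 to 3754 CPM and 807 to 968 CPM at 20 µg/mL. Their groups overlapped and neither was called, at 0.03 ± 0.061 and 0.18 ± 0.081 (SE, adjusted p = 0.814 and 0.118). SLC7A6, an exchanger of cationic and neutral amino acids, fell by 0.37 ± 0.074 on the log2 scale (SE, adjusted p = 0.000832).

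Cytosolic aminoacyl-tRNA synthetases, which load transfer RNAs with amino acids for the cytosolic ribosome, rose in part, and none of those listed as mitochondrial rose. Of 20 cytosolic enzymes 11 rose and 2 fell (1 without Soshiho-tang 500 replicate 1 or 2 or Soshiho-tang 20 replicate 2 or 3), HARS1 by 0.20 and RARS1 by 0.18, the call of RARS1 being lost without Soshiho-tang 500 replicate 1 or 2 or Soshiho-tang 20 replicate 2 or 3. Of 17 mitochondrial enzymes 0 rose and 3 fell, the second count being 0 without Soshiho-tang 500 replicate 2 and 1 without Soshiho-tang 500 replicate 1 or Soshiho-tang 20 replicate 1, 2 or 3. The share of cytosolic enzymes that fell (10%) was near the 10.2% of all genes tested. The median log2 fold changes of the cytosolic and mitochondrial enzymes were 0.31 and −0.03. AARS1, the alanine enzyme, was at 475, 490.0 and 501 CPM at 500 µg/mL, against 287, 296 and 284 CPM at 20 µg/mL, a log2 fold change of 0.76 ± 0.049 (SE, adjusted p = 3.17e-11). GARS1, which serves both compartments and was listed as cytosolic, gave 0.80 ± 0.048 (SE, adjusted p = 1.07e-11). CARS1 gave 0.79 ± 0.052 (SE, adjusted p = 5.34e-11) and SARS1 0.78 ± 0.058 (SE, adjusted p = 3.94e-10). Among the enzymes not called were QARS1 at −0.01 ± 0.058, KARS1 at −0.05 ± 0.056 and VARS1 at −0.04 ± 0.062, with adjusted p of 0.911, 0.565 and 0.719.

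**Figure D3:**
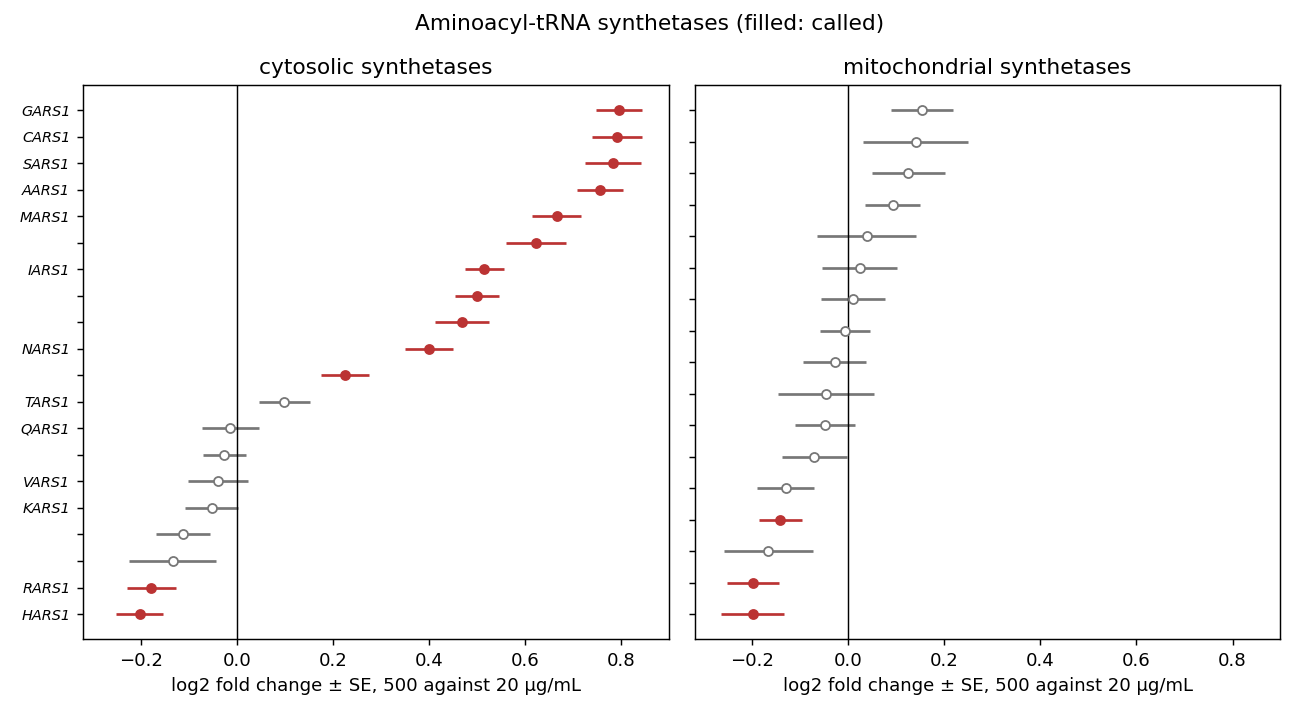
Log2 fold change at 500 against 20 µg/mL Soshiho-tang for each aminoacyl-tRNA synthetase tested, cytosolic on the left (20 genes) and mitochondrial on the right (17 genes), ordered by value, with names for the enzymes described here; bars are standard errors and filled points are called. Filled cytosolic points reach 0.80, and all mitochondrial points lie between −0.20 and 0.15.

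The element through which ATF4 and its C/EBP partners act was looked for in promoter windows of RefSeq (GRCh38.p14), which run from 250 bases before to 50 after a gene's start. Its core was searched as TGATGNAA on both strands. It was found in 202 of 11865 windows of tested genes (1.7%), in 11 of 109 windows of genes called at least 2-fold higher (10.1%), in 40 of 1333 windows of all genes called higher (3%) and in 22 of 1422 windows of genes called lower (1.55%). Among cytosolic synthetases 6 of 16 windows held it and among mitochondrial ones 1 of 14. Of the 6 cytosolic synthetase genes with the letters 5 rose, with a median log2 fold change of 0.59 over the 6; of the 10 without them 4 rose and 2 fell, with a median of −0.03. In the amino acid and one-carbon synthesis list the order of the medians was the other way, at 0.67 over 3 genes with the letters, all called higher, and 1.01 over 7 without them, of which 4 rose and 1 fell. Among amino acid transporters the median was 0.57 over 3 genes with the letters, 2 of them called higher, and 0.36 over 7 without them, of which 4 rose and 1 fell. A match is a description of the letters and shows no binding. The sequences below are 30 bases around the match, on the strand of the gene, with the match in capitals, shown because they are the element in ASNS and CHAC1 and in the 6 synthetase genes.
ASNS, chr7:97872458-97872487 (minus strand): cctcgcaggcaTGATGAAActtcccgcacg
CHAC1, chr15:40953251-40953280 (plus strand): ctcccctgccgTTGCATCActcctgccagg
AARS1, chr16:70289675-70289704 (minus strand): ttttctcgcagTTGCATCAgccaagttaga
CARS1, chr11:3057407-3057436 (minus strand): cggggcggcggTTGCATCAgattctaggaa
IARS1, chr9:92293692-92293721 (minus strand): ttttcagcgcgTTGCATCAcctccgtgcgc
MARS1, chr12:57488053-57488082 (plus strand): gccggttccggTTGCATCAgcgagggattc
NARS1, chr18:57621804-57621833 (minus strand): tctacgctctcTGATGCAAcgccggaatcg
TARS1, chr5:33440956-33440985 (plus strand): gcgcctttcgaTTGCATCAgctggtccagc
In the 6 synthetase genes the letters read TTGCATCA or its reverse complement TGATGCAA, and the match lay within 15 bases of the start in all but AARS1. IARS1, MARS1 and NARS1 rose by 0.52, 0.67 and 0.40 on the log2 scale. TARS1 holds the letters too and was at 276, 280.5 and 308 CPM at 500 µg/mL and 255, 270.2 and 282 CPM at 20 µg/mL, groups that overlapped (log2 fold change 0.10 ± 0.053, SE, adjusted p = 0.202).

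Endoplasmic reticulum genes rose in part. Of 16 chaperones and folding enzymes 5 rose and 0 fell, the first count being 3 without Soshiho-tang 500 replicate 3 or Soshiho-tang 20 replicate 2, and the median log2 fold change was 0.12. HSPA5, the chaperone BiP, was at 916, 963 and 972 CPM at 500 µg/mL and 641, 624 and 641 CPM at 20 µg/mL, a log2 fold change of 0.58 ± 0.041 (SE, adjusted p = 1.3e-10). HYOU1, its nucleotide exchange factor, rose by 0.55 ± 0.062 and DNAJB9, its J-domain partner, by 0.73 ± 0.083 (SE, adjusted p = 5.11e-07 and 4.76e-07). The lectin chaperones CALR and CANX and the disulfide isomerases PDIA3 and PDIA4 were not called, at −0.08 ± 0.048, 0.12 ± 0.061, 0.06 ± 0.051 and 0.03 ± 0.052 (SE, adjusted p = 0.265, 0.189, 0.452 and 0.766).

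Sensors and degradation factors of the same organelle rose as well. Of 14 members 9 rose and 0 fell. ERN1, which encodes the sensor IRE1, was at 30.6, 34.6 and 36.2 CPM at 500 µg/mL, against 16.9, 16.6 and 18.4 CPM at 20 µg/mL, a log2 fold change of 0.97 ± 0.082 (SE, adjusted p = 3.98e-09). XBP1, the factor spliced by IRE1, and HERPUD1, which takes part in degradation of misfolded proteins, rose by 0.63 ± 0.075 and 0.83 ± 0.055 (SE, adjusted p = 1.14e-06 and 5.34e-11). The element bound by ATF6 with NF-Y, searched as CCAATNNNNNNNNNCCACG on both strands, was found in 14 of 11865 windows (0.118%) and in 6 of the 15 windows of endoplasmic reticulum chaperones. Of these 6 genes 2 rose, HSPA5 and HSP90B1, the second at 0.13 ± 0.043 (SE, adjusted p = 0.0272) and with its call lost without Soshiho-tang 20 replicate 1 or 2 or Soshiho-tang 500 replicate 3; CALR, CANX, CRELD2 and ERO1B were not called. Of the 9 chaperone genes without the letters 3 rose, and the median log2 fold changes were 0.13 with them and 0.11 without them. The letters contain the CCAAT box, which NF-Y binds, so the searches for both overlap. HSPA5, called higher, and CALR, not called, both hold the full element.
HSPA5, chr9:125241385-125241414 (minus strand): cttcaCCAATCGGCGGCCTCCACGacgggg
CALR, chr19:12938379-12938408 (plus strand): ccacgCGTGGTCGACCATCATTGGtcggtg

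Cytosolic heat shock chaperones fell as a group. Of 18 members 16 fell and 0 rose, with a median log2 fold change of −0.41. HSPA1A, the stress-inducible HSP70 (ENSG00000204389, GRCh38 chromosome 6, 31815464 to 31817946, plus strand), was at 116, 99.3 and 113 CPM at 500 µg/mL, against 204, 254 and 246 CPM at 20 µg/mL. All high-dose libraries lay below all low-dose libraries, which the naming rule requires of the largest decreases. The log2 fold change was −1.10 ± 0.12 (SE, adjusted p = 2.89e-07). HSPA1B, a near-identical neighbour with which reads may be shared, gave −0.91 ± 0.13 (SE, adjusted p = 1.86e-05). HSP90AA1, the inducible HSP90, was at 1589, 1520.2 and 1609 CPM at 500 µg/mL and 2211, 2207 and 2395 CPM at 20 µg/mL, a log2 fold change of −0.53 ± 0.048 (SE, adjusted p = 1.41e-08). The co-chaperones HSPH1, DNAJA1, STIP1, BAG3 and FKBP4 fell by 0.46, 0.46, 0.41, 0.41 and 0.36 on the log2 scale. HSPA4L and PTGES3 were the members not called, at −0.15 ± 0.094 and −0.15 ± 0.067 (SE, adjusted p = 0.285 and 0.125).

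Chaperones of other compartments divided. The chaperonin TRiC, which folds actin and tubulin, had 7 of 8 subunits lower, led by TCP1 at −0.32 ± 0.045 (SE, adjusted p = 9.1e-06); the count was 4 without Soshiho-tang 20 replicate 1. In mitochondria HSPA9 and the protease LONP1 rose by 0.36 ± 0.038 and 0.60 ± 0.064 (SE, adjusted p = 1.21e-07 and 1.48e-07), while the chaperonin pair HSPE1 and HSPD1 fell by 0.50 and 0.21 on the log2 scale. The inverted GAA repeat that HSF1 recognises, searched as GAANNTTC on both strands, was found in 551 of 11865 windows (4.64%) and in 7 of 17 windows of cytosolic heat shock genes. All 7 fell, as did 8 of the 10 without the letters. The matches in HSPA1A, HSPA8 and CHORDC1 are shown as examples from genes that fell by 1.10, 0.51 and 0.50 on the log2 scale.
HSPA1A, chr6:31815426-31815455 (plus strand): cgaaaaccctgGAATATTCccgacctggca
HSPA8, chr11:123062168-123062197 (minus strand): ggccccttctgGAAGGTTCtaagatagggt
CHORDC1, chr11:90223081-90223110 (minus strand): ggaaaattcgcGAAGGTTCctgaaacgcaa

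Genes of mitosis fell almost without exception. Of 25 members 24 fell and 0 rose, with a median log2 fold change of −0.37; the member not called was CENPA. MKI67, the proliferation antigen, was at 419, 352 and 393 CPM at 500 µg/mL, against 631, 638 and 681 CPM at 20 µg/mL, a log2 fold change of −0.75 ± 0.094 (SE, adjusted p = 2.32e-06). AURKA, a kinase of the spindle poles, was at 99.5, 95.6 and 104 CPM at 500 µg/mL and 155, 159.7 and 162 CPM at 20 µg/mL, a log2 fold change of −0.67 ± 0.057 (SE, adjusted p = 4.13e-09). CCNB1, the mitotic cyclin B1, gave −0.34 ± 0.058 (SE, adjusted p = 0.000118), and PLK1, a kinase needed for entry into and passage through mitosis, −0.57 ± 0.078 (SE, adjusted p = 6.82e-06). The changes of these genes were below 2-fold. In RNA of whole cultures, fewer cells in mitosis and less of these transcripts per cell cannot be told apart.

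The cell cycle genes homology region, through which mitotic promoters are repressed and later activated, was searched as TTTGAA on both strands. It was found in 1175 of 11865 windows (9.9%), in 203 of 1422 windows of genes called lower (14.3%), in 14 of 21 windows of mitosis genes and in 1 of 26 windows of replication genes. Of the 14 mitosis genes with the letters 13 fell, and all 7 without them fell. A match of 6 letters is common, and it is shown for 4 genes in which it lay 28 or 29 bases before the start.
CCNB2, chr15:59105105-59105134 (plus strand): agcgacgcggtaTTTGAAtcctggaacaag
PLK1, chr16:23678848-23678877 (plus strand): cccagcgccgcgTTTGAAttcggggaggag
MKI67, chr10:128126435-128126464 (minus strand): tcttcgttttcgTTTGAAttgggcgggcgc
KIF11, chr10:92593090-92593119 (plus strand): ctctgtctctttTTCAAAttgaggcgccga
CCNB2 and KIF11 fell by 0.34 and 0.56 on the log2 scale.

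DNA replication genes fell too. Of 28 members 20 fell and 0 rose, with a median log2 fold change of −0.24. RRM2, the regulated subunit of ribonucleotide reductase, was at 211, 199 and 216 CPM at 500 µg/mL and 320.1, 316 and 326 CPM at 20 µg/mL, a log2 fold change of −0.62 ± 0.045 (SE, adjusted p = 2.73e-10). PCNA, the sliding clamp, gave −0.29 ± 0.053 (SE, adjusted p = 0.000235) and MCM10, a factor of origin firing, −0.51 ± 0.052 (SE, adjusted p = 6.94e-08). RFC2, RFC4, ORC6 and PRIM1 were not called, the largest of their log2 fold changes being 0.03 for PRIM1.

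Among regulators of G1, 8 of 19 fell and 1 rose. CCND3, cyclin D3, was at 101, 91.7 and 94.4 CPM at 500 µg/mL, against 195, 199.5 and 185 CPM at 20 µg/mL, a log2 fold change of −1.01 ± 0.063 (SE, adjusted p = 1.64e-11). CCND1, cyclin D1, had groups that overlapped and gave −0.03 ± 0.039 (SE, adjusted p = 0.7). CDKN2C, an inhibitor of CDK4 and CDK6, was lower too, at 7.92, 8.36 and 9.07 CPM at 500 µg/mL and 17.5, 18.1 and 17.6 CPM at 20 µg/mL, a log2 fold change of −1.07 ± 0.074 (SE, adjusted p = 1.28e-10). The member that rose was CDKN1A, the inhibitor p21, at 106, 109 and 119 CPM at 500 µg/mL and 81.3, 87.7 and 81.2 CPM at 20 µg/mL (log2 fold change 0.41 ± 0.072, SE, adjusted p = 0.000154).

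Targets of p53 rose in part, with 12 of 20 higher, 0 lower and a median log2 fold change of 0.25. GDF15, a secreted stress cytokine that is also a target of CHOP and ATF4, led them at 44.0, 48.7 and 43.3 CPM at 500 µg/mL and 19.9, 22.0 and 17.3 CPM at 20 µg/mL, a log2 fold change of 1.20 ± 0.10 (SE, adjusted p = 2.68e-09). The p53 targets called higher also included CDKN1A, PLK3, a stress-responsive kinase, and PHLDA3, an inhibitor of AKT, at 0.41, 0.61 and 0.46 on the log2 scale. MDM2, ZMAT3 and RRM2B were among the members not called, at 0.31 ± 0.13, 0.08 ± 0.11 and −0.04 ± 0.071 (SE, adjusted p = 0.0914, 0.675 and 0.764). Among death receptors and BCL2-family genes 9 of 19 rose and 2 fell, the second share (10.5%) being near the 10.2% of all genes tested. The number lower was 1 without Soshiho-tang 500 replicate 2 or 3 or Soshiho-tang 20 replicate 2. TNFRSF10B, the death receptor DR5 and a target of CHOP, was at 212, 238 and 227 CPM at 500 µg/mL, against 129.8, 126 and 130.2 CPM at 20 µg/mL, a log2 fold change of 0.81 ± 0.045 (SE, adjusted p = 2e-12). The BH3-only genes PMAIP1, which encodes NOXA, and BBC3, which encodes PUMA, rose by 0.97 ± 0.10 and 0.80 ± 0.13, and BCL2L11, which encodes BIM, fell by 0.38 ± 0.063 (SE, adjusted p = 1.01e-07, 7.82e-05 and 8.3e-05).

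Ligands of the EGF receptor and feedback genes of the MAP kinase pathway rose, 10 of 17 with 0 lower. EREG, epiregulin, was at 250.5, 279 and 269 CPM at 500 µg/mL and 134, 128 and 134 CPM at 20 µg/mL, a log2 fold change of 1.01 ± 0.087 (SE, adjusted p = 5.19e-09). AREG and TGFA, further ligands, rose by 0.60 ± 0.054 and 0.94 ± 0.12, and the phosphatases DUSP1 and DUSP5 by 0.61 ± 0.061 and 0.56 ± 0.052 (SE, adjusted p = 1.47e-08, 3.37e-06, 6.79e-08 and 1.47e-08). HBEGF was not called, at 0.06 ± 0.19 (SE, adjusted p = 0.863). CDCP1, a transmembrane protein phosphorylated by SRC, was on no list and was at 22.2, 25.1 and 25.6 CPM at 500 µg/mL and 6.83, 7.43 and 6.96 CPM at 20 µg/mL, a log2 fold change of 1.78 ± 0.10 (SE, adjusted p = 1.88e-12).

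Immediate early genes went in both directions, 7 of 19 higher and 4 lower. The AP-1 subunits JUN and FOSL1 rose by 0.93 ± 0.062 and 1.00 ± 0.11, while FOS fell by 0.78 ± 0.13 (SE, adjusted p = 6.91e-11, 1.59e-07 and 0.000119). The orphan nuclear receptors NR4A1, NR4A2 and NR4A3 all fell, the first by 0.66 and the second by 0.81 on the log2 scale. NR4A3 (ENSG00000119508, GRCh38 chromosome 9, 99821855 to 99866891, plus strand) was at 3.65, 3.53 and 3.41 CPM at 500 µg/mL, against 8.39, 8.27 and 9.27 CPM at 20 µg/mL, and its log2 fold change of −1.29 ± 0.10 (SE, adjusted p = 1.97e-09) was the largest decrease that met the naming rule.

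Chemokines that draw neutrophils rose and CCL2, which draws monocytes, fell. Of 11 members 8 rose and 1 fell, the second share (9.09%) being near the 10.2% of all genes tested. CXCL8, interleukin 8, was at 3.07, 4.23 and 5.39 CPM at 500 µg/mL, against 1.40, 1.20 and 1.06 CPM at 20 µg/mL, a log2 fold change of 1.80 ± 0.22 (SE, adjusted p = 1.54e-06). CXCL2 gave 1.66 ± 0.17 (SE, adjusted p = 6.68e-08), and CXCL5 was at 144, 158 and 151 CPM at 500 µg/mL and 70.1, 64.0 and 69.9 CPM at 20 µg/mL (log2 fold change 1.15 ± 0.075, SE, adjusted p = 3.52e-11). CCL2 was at 2.95, 3.17 and 2.74 CPM at 500 µg/mL and 4.74, 5.28 and 5.24 CPM at 20 µg/mL, a log2 fold change of −0.79 ± 0.11 (SE, adjusted p = 9.98e-06). The NF-kappa-B subunits NFKB2 and RELB rose by 0.63 ± 0.063 and 0.63 ± 0.075 (SE, adjusted p = 6.82e-08 and 9.93e-07), whereas the early feedback genes NFKBIA and TNFAIP3 were not called, at −0.06 ± 0.067 and 0.16 ± 0.12 (SE, adjusted p = 0.616 and 0.381). Interferon-stimulated genes had 1 of 16 higher and 1 lower (6.25% each, below the 10.3% and 10.2% of all genes tested). The number lower was 0 without Soshiho-tang 500 replicate 2 or 3 or Soshiho-tang 20 replicate 2 or 3.

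The 3 fibrinogen chains, liver proteins that A549 cells also make, fell together. FGA, the alpha chain, was at 111, 99.8 and 107 CPM at 500 µg/mL, against 229, 227 and 229 CPM at 20 µg/mL, a log2 fold change of −1.11 ± 0.046 (SE, adjusted p = 1.22e-14). FGB (ENSG00000171564, GRCh38 chromosome 4, 154562956 to 154571086, plus strand) was at 121, 101 and 123 CPM at 500 µg/mL and 241, 253 and 274 CPM at 20 µg/mL (log2 fold change −1.16 ± 0.072, SE, adjusted p = 1.68e-11), and FGG gave −0.88 ± 0.051 (SE, adjusted p = 5.84e-12). HNF4A, a nuclear receptor of liver and gut, was at 64.8, 57.7 and 60.0 CPM at 500 µg/mL and 93.0, 97.0 and 93.3 CPM at 20 µg/mL, a log2 fold change of −0.63 ± 0.056 (SE, adjusted p = 7.95e-09). The 12 hepatocyte markers, of which 8 to 11 had a count in any one Soshiho-tang library, summed to 344 to 393 CPM at 500 µg/mL and 734 to 772 CPM at 20 µg/mL. This sum restates FGA, FGB, FGG and HNF4A, since each other marker had at most 38 counts in any of the 6 libraries, and ALB, the defining marker, had at most 2 counts in any of the 6 libraries.

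**Figure D4:**
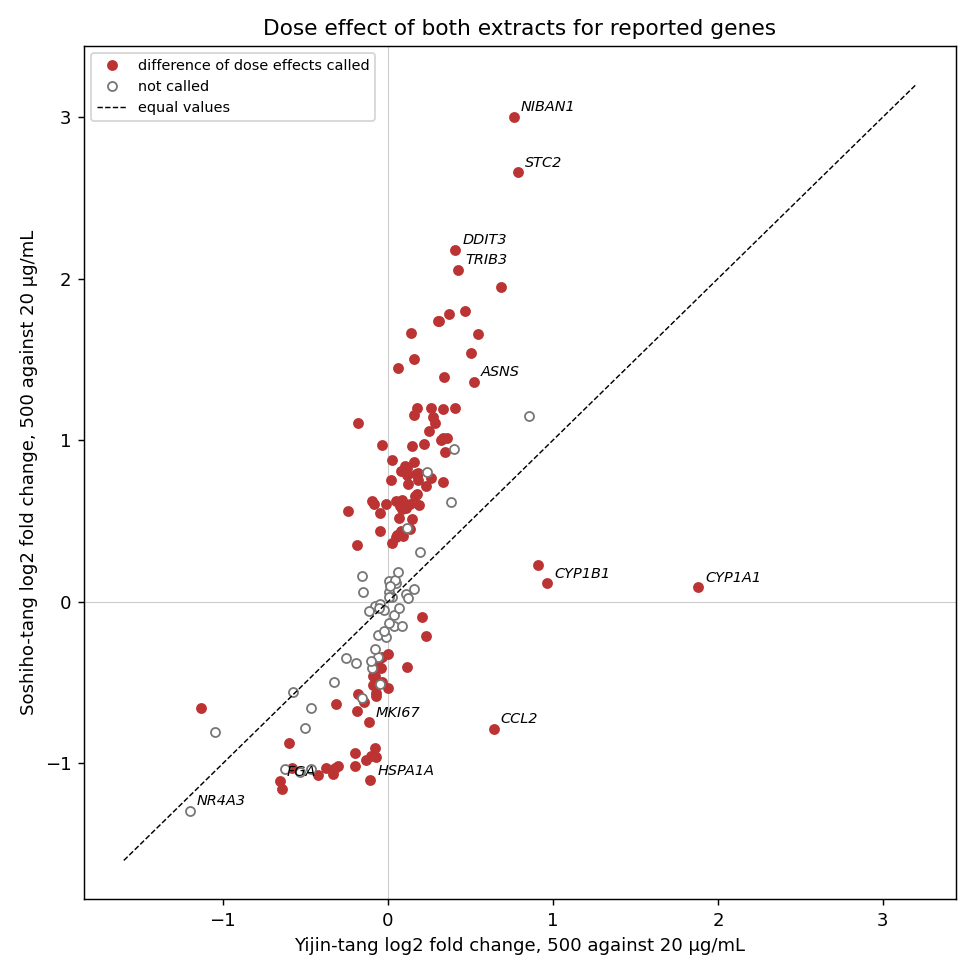
Log2 fold change at 500 against 20 µg/mL of Yijin-tang (x axis) and of Soshiho-tang (y axis) for the named genes, with the line of equal values; filled points are genes whose difference of dose effects was called. Stress response genes lie above the line, heat shock and mitosis genes below it, the fibrinogen chains nearer to it, and CYP1A1 and CYP1B1 to the right.

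Genes of cholesterol synthesis and uptake fell slightly, 12 of 25 with 0 higher. The number lower was 4 without Soshiho-tang 20 replicate 2, 5 without Soshiho-tang 500 replicate 2, 6 without Soshiho-tang 20 replicate 1 and 7 without Soshiho-tang 20 replicate 3. HMGCS1, which makes HMG-CoA, fell, at −0.41 ± 0.063 (SE, adjusted p = 3.81e-05). Of fatty acid synthesis genes 7 of 14 fell and 2 rose, the second count being 1 without Soshiho-tang 500 replicate 2 or Soshiho-tang 20 replicate 3; SCD, the stearoyl-CoA desaturase, was at 1129, 1079 and 1136 CPM at 500 µg/mL and 1253, 1314 and 1308 CPM at 20 µg/mL (log2 fold change −0.21 ± 0.052, SE, adjusted p = 0.00419). PLIN2, which coats lipid droplets, rose by 0.74 ± 0.070 (SE, adjusted p = 2.7e-08).

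Glycolysis and antioxidant genes fell in part. Of 18 glycolysis genes 9 fell and 2 rose, the second share (11.1%) being near the 10.3% of all genes tested. The number lower was 4 without Soshiho-tang 500 replicate 3 or Soshiho-tang 20 replicate 1 or 2 and 5 without Soshiho-tang 500 replicate 2, and the number higher 1 without Soshiho-tang 500 replicate 2. LDHA, lactate dehydrogenase A, gave −0.35 ± 0.053 (SE, adjusted p = 2.6e-05). Of 24 NRF2 targets 9 fell and 3 rose, the second share (12.5%) being near the 10.3% of all genes tested. NRF2 is constitutively active in A549 cells through loss of its inhibitor KEAP1. GPX2, a glutathione peroxidase, was at 109.6, 103 and 141 CPM at 500 µg/mL, against 208, 249.9 and 265 CPM at 20 µg/mL, a log2 fold change of −1.03 ± 0.15 (SE, adjusted p = 1.13e-05). NQO1, the quinone reductase often used as a readout of NRF2, was not called, at −0.13 ± 0.050 (SE, adjusted p = 0.0737). HMOX1, haem oxygenase 1, which NRF2 shares with other stress factors, went up, with 243, 249.7 and 249.5 CPM at 500 µg/mL and 164, 167 and 153 CPM at 20 µg/mL (log2 fold change 0.62 ± 0.059, SE, adjusted p = 3.18e-08).

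Targets of the hypoxia-inducible factors fell in part. Of 20 members 2 rose, a share near the 10.3% of all genes tested, and 6 fell, the first count being 1 without Soshiho-tang 500 replicate 3 or Soshiho-tang 20 replicate 2. VEGFA, an angiogenic factor that ATF4 also drives, was at 52.7, 62.3 and 63.1 CPM at 500 µg/mL and 34.3, 35.5 and 35.5 CPM at 20 µg/mL, a log2 fold change of 0.76 ± 0.063 (SE, adjusted p = 3.04e-09). ADM, adrenomedullin, and EGLN3, a prolyl hydroxylase that responds to hypoxia, went down, at −0.58 ± 0.068 (SE, adjusted p = 6.36e-07) and −0.93 ± 0.080 (SE, adjusted p = 5.16e-09).

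Several non-coding transcripts that host small nucleolar RNAs in their introns rose, 10 of 14 with 0 lower. These transcripts are degraded when they are translated, so they are known to accumulate when translation slows. Neither translation nor decay was measured here, and their part in these values was not tested. ZFAS1 was at 138, 156 and 153 CPM at 500 µg/mL, against 80.4, 87.0 and 75.8 CPM at 20 µg/mL, a log2 fold change of 0.88 ± 0.076 (SE, adjusted p = 6.17e-09). GAS5 gave 0.84 ± 0.076 (SE, adjusted p = 1.08e-08) and SNHG32 0.86 ± 0.080 (SE, adjusted p = 1.73e-08). The strand setting of the counting is not given in the sources used here, so reads of these genes and of overlapping genes on the other strand may be mixed. Of 22 translation factors 6 rose and 2 fell, the second a share near the 10.2% of all genes tested. The number lower was 1 with any 1 of the 6 libraries left out. Among those higher was EIF4EBP1, an inhibitor of cap-dependent translation and a target of ATF4, at 143, 149.5 and 164 CPM at 500 µg/mL and 88.2, 97.8 and 91.3 CPM at 20 µg/mL (log2 fold change 0.72 ± 0.10, SE, adjusted p = 6.88e-06). Of 30 cytosolic ribosomal protein genes 2 rose (6.67%, against 10.3% of all genes tested) and 0 fell. The number higher was 0 without Soshiho-tang 500 replicate 1, 2 or 3 or Soshiho-tang 20 replicate 3 and 1 without Soshiho-tang 20 replicate 2. It reached 3 with 1 library left out, and was 1 to 8 under the other settings.

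Cytoskeletal and junction genes changed in part. Of 17 tubulin and actin genes 12 fell and 2 rose, the second share (11.8%) being near the 10.3% of all genes tested. The number lower was 7 without Soshiho-tang 20 replicate 2, and the number higher 1 with any 1 of the 6 libraries left out. TUBB4B, a beta-tubulin, was at 439, 415 and 434 CPM at 500 µg/mL and 619, 684 and 639 CPM at 20 µg/mL, a log2 fold change of −0.59 ± 0.094 (SE, adjusted p = 5.27e-05). Of 17 keratin and junction genes 4 rose and 6 fell, the second count being 3 without Soshiho-tang 20 replicate 2. JUP, plakoglobin of desmosomes and adherens junctions, fell by 0.66 ± 0.10 and CLDN1, a tight junction claudin, rose by 0.60 ± 0.066 (SE, adjusted p = 1.86e-05 and 2.98e-07). GREM1, a secreted antagonist of BMPs, had a log2 fold change of 1.15 ± 0.11 (SE, adjusted p = 2.01e-08).

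Some groups held few or no called genes. Of 24 nuclear genes of respiratory complex I, 0 rose and 0 fell at an adjusted p below 0.05, with a median log2 fold change of −0.08; 6 were lower and 0 higher at an unadjusted p below 0.05, and DESeq2 called 0. The number called lower was 1 without Soshiho-tang 500 replicate 3 or Soshiho-tang 20 replicate 3. It was 0 to 5 under the other settings, which left out no single library. Of 28 mitochondrial ribosomal proteins 1 rose (3.57%) and 2 fell (7.14%), against 10.3% and 10.2% of all genes tested. The number lower was 0 to 1 with any 1 of the 6 libraries left out.

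Of 12 targets of the glucocorticoid receptor 3 rose and 4 fell, with a median log2 fold change of −0.05. TSC22D3, which other factors also induce, rose, with 27.4, 28.1 and 30.8 CPM at 500 µg/mL and 8.96, 8.72 and 8.21 CPM at 20 µg/mL (log2 fold change 1.74 ± 0.093, SE, adjusted p = 1.14e-12). The phosphatase gene DUSP1 and ERRFI1, an inhibitor of the EGF receptor, also rose, by 0.61 and 0.35 on the log2 scale. KLF9, a transcription factor, and SGK1, a kinase, fell by 0.56 and 0.50 on the log2 scale.

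Other genes of the largest changes stood outside these groups. AKNA, a protein of centrosomal microtubules, was at 26.5, 29.6 and 27.5 CPM at 500 µg/mL and 10.5, 9.80 and 9.21 CPM at 20 µg/mL, a log2 fold change of 1.50 ± 0.10 (SE, adjusted p = 7.62e-11). On the lower side stood TM4SF4, a membrane protein of the tetraspanin-like family, at −1.07 ± 0.090 (SE, adjusted p = 3.45e-09), INSL4, an insulin-like peptide, at −1.04 ± 0.13 (SE, adjusted p = 2.23e-06), ARRB1, beta-arrestin 1, at −1.03 ± 0.093 (SE, adjusted p = 1.19e-08), BCAS1 at −1.03 ± 0.10 (SE, adjusted p = 2.01e-08) and ZNF608, a zinc finger protein, at −1.02 ± 0.12 (SE, adjusted p = 1.02e-06). CP, the ferroxidase ceruloplasmin of the iron handling list, was at 6.76, 6.81 and 9.97 CPM at 500 µg/mL and 14.4, 14.9 and 19.7 CPM at 20 µg/mL (log2 fold change −1.05 ± 0.17, SE, adjusted p = 6e-05).

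The middle dose was compared with both ends of the range. Between 100 and 20 µg/mL 0 genes were called (0%), higher or lower (0% each), by edgeR's quasi-likelihood test; 422 had an unadjusted p below 0.05, and DESeq2 called 0. Between 500 and 100 µg/mL 2921 genes were called (16.7%), 1462 higher (8.37%) and 1459 lower (8.36%), with 923 lower when Soshiho-tang 500 replicate 2 was left out. This comparison shares the 500 µg/mL libraries with that of 500 against 20 µg/mL, so the lists are not independent; 1274 genes were higher in both, 70.5% of those higher against 20 µg/mL and 87.1% of those higher against 100 µg/mL. TRIB3 was at 61.4, 66.9 and 56.9 CPM at 20 µg/mL, 74.2, 65.1 and 61.3 CPM at 100 µg/mL and 248, 274 and 248 CPM at 500 µg/mL. STC2 was at 20.0, 19.4 and 18.7 CPM at 20 µg/mL, 23.5, 23.5 and 23.9 CPM at 100 µg/mL and 107, 128 and 132 CPM at 500 µg/mL, and its log2 fold change between 100 and 20 µg/mL was 0.29 ± 0.067 (SE, adjusted p = 1). All 3 STC2 libraries of 100 µg/mL lay above those of 20 µg/mL, by a step that was not called. HSPA1A was at 204, 254 and 246 CPM at 20 µg/mL, 194, 209 and 252 CPM at 100 µg/mL and 116, 99.3 and 113 CPM at 500 µg/mL.

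The same step from 20 to 500 µg/mL was set beside that of Yijin-tang, whose 6 libraries share none with it. In Yijin-tang 123 genes were called (0.705%), 50 higher (0.286%) and 73 lower (0.418%). The difference of the dose effects, Soshiho-tang minus Yijin-tang, was tested in the same fit. It was called for 705 genes (4.04%), positive for 397 (2.27%) and negative for 308 (1.76%). With 1 of the 12 libraries left out the negative ones numbered 176 to 262, the fewest without Soshiho-tang 500 replicate 2; they were 189 without Soshiho-tang 20 replicate 2 and 191 without Yijin-tang 500 replicate 2.

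Most stress response genes had the larger dose effect in Soshiho-tang. The difference of dose effects was positive for 12 of 15 stress response genes, 12 of 15 synthesis genes and 10 of 20 cytosolic synthetases. NIBAN1 had a log2 fold change of 3.00 ± 0.14 in Soshiho-tang and 0.76 ± 0.14 (SE, adjusted p = 0.00677) in Yijin-tang, a difference of 2.24 ± 0.20 (SE, adjusted p = 8.14e-08). ASNS had 1.36 ± 0.058 in Soshiho-tang and 0.52 ± 0.057 (SE, adjusted p = 5.82e-06) in Yijin-tang, a difference of 0.84 ± 0.081 (SE, adjusted p = 2.32e-07). DDIT3 gave 2.18 in Soshiho-tang and 0.41 ± 0.11 (SE, adjusted p = 0.117) in Yijin-tang, where it was not called, and the difference was 1.77 ± 0.15 (SE, adjusted p = 6.25e-08). ATF4 differed by 0.36 ± 0.10 (SE, adjusted p = 0.0337).

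Heat shock and mitosis genes differed in the other direction, with 10 of 18 heat shock chaperones, 15 of 25 mitosis genes and 8 of 28 replication genes more negative in Soshiho-tang. HSPA1A had −1.10 ± 0.12 in Soshiho-tang and −0.11 ± 0.12 (SE, adjusted p = 0.948) in Yijin-tang, a difference of −0.99 ± 0.17 (SE, adjusted p = 0.000601). MKI67 had −0.75 ± 0.094 in Soshiho-tang and −0.12 ± 0.093 (SE, adjusted p = 0.886) in Yijin-tang, a difference of −0.63 ± 0.13 (SE, adjusted p = 0.00495). The fibrinogen chains fell in both extracts, FGA by 1.11 in Soshiho-tang and 0.65 in Yijin-tang, with a difference of −0.46 ± 0.064 (SE, adjusted p = 5.26e-05). NR4A3 fell by 1.29 in Soshiho-tang and 1.20 in Yijin-tang, and the difference of −0.09 ± 0.15 (SE, adjusted p = 0.846) was not called.

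Targets of the aryl hydrocarbon receptor, which responds to planar aromatic compounds, had a negative difference for 4 of 8 genes and a positive one for 0. In Yijin-tang 4 of the 8 rose, and in Soshiho-tang 1, TIPARP, by 0.23 on the log2 scale. The Soshiho-tang share (12.5%) was near the 10.3% of all genes tested, and the count was 0 without Soshiho-tang 500 replicate 2 or 3 or Soshiho-tang 20 replicate 1 or 3. CYP1A1, a monooxygenase that is its classic target, was at 3.03, 3.28 and 3.51 CPM in Soshiho-tang 500 and 3.04, 3.09 and 3.12 CPM in Soshiho-tang 20, groups that overlapped (log2 fold change 0.09 ± 0.15, SE, adjusted p = 0.738). In Yijin-tang its log2 fold change was 1.88 ± 0.15 (SE, adjusted p = 3.01e-08), and the difference was −1.79 ± 0.21 (SE, adjusted p = 6.19e-06). CYP1B1 was at 179, 166 and 191 CPM in Soshiho-tang 500 and 162, 165 and 168 CPM in Soshiho-tang 20 (log2 fold change 0.11 ± 0.061, SE, adjusted p = 0.202), with 0.97 ± 0.062 (SE, adjusted p = 8.61e-10) in Yijin-tang and a difference of −0.85 ± 0.087 (SE, adjusted p = 5.96e-07). CCL2 moved in opposite directions, by −0.79 in Soshiho-tang and 0.64 ± 0.10 (SE, adjusted p = 0.00121) in Yijin-tang, a difference of −1.43 ± 0.15 (SE, adjusted p = 1.07e-06). The remaining genes most negative in the difference were RNF43, a ubiquitin ligase that dampens Wnt signalling, MGAM, maltase-glucoamylase, MDGA1, an anchored surface protein, and TPPP3, which bundles microtubules, at −0.89 ± 0.20, −0.85 ± 0.16, −0.84 ± 0.13 and −0.82 ± 0.15 (SE, adjusted p = 0.0106, 0.00201, 0.000227 and 0.00131).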

How the data were processed

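RNA of A549 cells was sequenced. The authors deposited 1 table of expected counts per gene (RSEM estimates, in part not whole; its 30 further columns, which are empty, were not used), and the 10 groups that hold 2 or more libraries entered 1 fit of 27 libraries. Per the submitters' processing notes, reads were handled with STAR 2.7.3a, RSEM 1.3.3, Trim Galore 0.6.5 and FastQC 0.11.9, with no roles given there. Expected counts share reads among similar genes, so near-identical copies are uncertain. Counts were rounded, genes of low count removed with filterByExpr (17459 kept), libraries scaled by TMM, and contrasts tested with edgeR 4.0.16 (quasi-likelihood; R 4.3.3), with Benjamini-Hochberg adjustment over all genes tested and a threshold of 0.05. Each standard error was obtained from the log2 fold change and the F statistic, as their ratio after taking the root of F. The common biological coefficient of variation was 6.89%. DESeq2 1.42.0, other scaling, no filter, other sets of libraries, a replicate block and leaving out each library were alternatives. The procedure was also run on counts simulated from its own fitted means and spread, with independent libraries. Such counts cannot show how it behaves where replicates are technical or share a batch.

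Genes named are, by rule, the 12 higher and 12 lower with the largest fold change among called genes that carry a symbol, average 2 or more in log2 CPM and have groups that do not overlap; up to 4 called members of each list with the smallest p; a fixed set; and the 8 largest differences of dose effects in each direction. Some genes the rule allows are not reported here, and other list members were chosen after their values were seen. The lists and the comparison were chosen with earlier results of these data known. Positions are from GENCODE v29 and promoter windows from RefSeq (GRCh38.p14).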

Additional observations from a re-analysis of the deposited data

Results flagged for a closer look

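Of the genes named above, 112 were picked out because the difference between the dose effects of both extracts was itself tested and called: 71 had a positive and 41 a negative difference, Soshiho-tang minus Yijin-tang, by edgeR's quasi-likelihood test at an adjusted p below 0.05. Each value below is that difference, on the log2 scale, from 12 libraries of which neither extract shares one with the other. Groups of 3 libraries are too small for a search for outlying samples.

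For factors and effectors of the integrated stress response the difference was 2.24 for NIBAN1, 1.87 for STC2, 1.77 for DDIT3, 1.63 for TRIB3, 1.43 for SESN2 and 1.38 for ATF3. It was 1.29 for PPP1R15A, 1.27 for CHAC1, 0.85 for NUPR1, 0.82 for DDIT4, 0.82 for CEBPG and 0.36 for ATF4. For enzymes of amino acid and one-carbon metabolism the difference was 1.11 for ALDH1L2, 1.05 for CBS, 1.04 for PCK2, 0.84 for ASNS, 0.81 for MTHFD2 and 0.79 for PHGDH. It was 0.68 for PSAT1, 0.50 for PYCR1, 0.45 for SHMT2, 0.32 for PSPH, 0.31 for MTHFD1L and −0.30 for GLUL. For amino acid transporters the difference was 0.94 for SLC6A9, 0.87 for SLC1A4, 0.49 for SLC7A1, 0.49 for SLC38A2 and 0.49 for SLC38A1. For aminoacyl-tRNA synthetases the difference was 0.67 for SARS1, 0.62 for CARS1, 0.61 for GARS1, 0.57 for AARS1, 0.49 for MARS1 and 0.37 for IARS1. It was 0.35 for NARS1. For chaperones and sensors of the endoplasmic reticulum and mitochondria the difference was 1.00 for ERN1, 0.72 for XBP1, 0.71 for HERPUD1, 0.60 for DNAJB9, 0.60 for HYOU1 and 0.47 for HSPA5. It was 0.47 for LONP1, 0.34 for HSPA9 and −0.46 for HSPE1. For cytosolic chaperones the difference was −0.99 for HSPA1A, −0.83 for HSPA1B, −0.53 for HSP90AA1, −0.46 for CHORDC1, −0.38 for HSPH1 and −0.37 for DNAJA1. It was −0.37 for STIP1, −0.32 for TCP1 and −0.30 for FKBP4. For cell cycle genes the difference was −0.74 for CDKN2C, −0.71 for CCND3, −0.63 for MKI67, −0.49 for KIF11, −0.49 for AURKA and −0.48 for RRM2. It was −0.42 for MCM10, −0.39 for PLK1, −0.31 for CCNB2 and 0.36 for CDKN1A. For death, growth factor, early response and inflammatory genes the difference was 1.52 for CXCL2, 1.33 for CXCL8, 1.02 for GDF15, 0.99 for CXCL5, 0.81 for DUSP5 and 0.75 for PMAIP1. It was 0.73 for TNFRSF10B, 0.69 for DUSP1, 0.68 for FOSL1, 0.65 for EREG, 0.58 for JUN and 0.58 for RELB. Further values were 0.54 for NFKB2, 0.52 for AREG, 0.48 for NR4A1, 0.54 for ERRFI1, 0.62 for PLK3, −0.68 for TIPARP and −1.43 for CCL2. NR4A1 fell between the doses of Soshiho-tang, so its positive difference stands for a larger fall in Yijin-tang. For the remaining reported genes with a positive difference the difference was 1.43 for TSC22D3, 1.41 for CDCP1, 1.35 for AKNA, 0.85 for ZFAS1 and 0.74 for GAS5. It was 0.74 for VEGFA, 0.71 for SNHG32, 0.49 for EIF4EBP1, 0.41 for CLDN1 and 0.40 for PLIN2. For those with a negative difference the difference was −1.79 for CYP1A1, −0.89 for RNF43, −0.85 for CYP1B1, −0.85 for MGAM, −0.84 for MDGA1 and −0.82 for TPPP3. It was −0.74 for EGLN3, −0.70 for ZNF608, −0.65 for BCAS1, −0.65 for TM4SF4 and −0.52 for HMGCS1. Further values were −0.51 for FGB, −0.51 for ADM, −0.46 for FGA, −0.45 for ARRB1, −0.44 for SCD and −0.32 for HNF4A. They also included −0.30 for LDHA and −0.28 for FGG.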

How the results depend on the processing

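Of 135 reported genes called between 500 and 20 µg/mL, 131 kept direction and call under all 14 other settings run. The other 4 (CTH, HSP90B1, RARS1 and TIPARP) lost the call under at least 1, and none reversed. Many of these genes were chosen by their values in this same contrast, which favours kept calls. Over all genes tested, 1256 of 1807 higher calls and 1161 of 1781 lower calls were kept without Soshiho-tang 500 replicate 2. Of 26 reported genes not called, 7 were called under at least 1 setting. With 1 library left out, 1277 to 1617 genes were higher and 1183 to 1519 lower, 131 to 181 at least 2-fold higher and 41 to 76 at least 2-fold lower. For 500 against 100 µg/mL, 923 to 1214 were lower, and for the difference of dose effects 176 to 262 were negative. Genes at least 2-fold lower numbered 98 with no filter on low counts and 40 by DESeq2, against 63. Between 100 and 20 µg/mL, no filter gave 32 higher and 27 lower genes. The causes were not tested.

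The replicate numbers were not taken to pair the libraries: same-numbered libraries correlated in their deviations from the group means by 0.0755, −0.0548 and 0.136, and not every library correlated best with its own number. On the second principal component of the 9 Soshiho-tang libraries (17.2% of the variance), replicate 3 lay lowest at each dose. It lay at −24.2, −18.0 and −11.3 at 500, 100 and 20 µg/mL, against 0.704, 23.7 and 18.9 for replicate 1 and 2.28, 14.3 and −6.34 for replicate 2. With the replicate number as a replicate block, 1929 genes were higher and 1913 lower between 500 and 20 µg/mL in the fit of 27 libraries, and 2287 higher and 2244 lower in a fit of the 6 libraries alone. Between 100 and 20 µg/mL the block in the fit of the contrast's libraries gave 1 higher and 1 lower gene. Depth limits genes of few counts, for which fold changes are least certain.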
